A study of Mus musculus with 2 samples.

Results

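Trophocytes are stromal cells of the deep gut wall, named for the support they give to the intestinal stem cell compartment. They lie below the crypts, near lymphatic and blood vessels, and are known as a source of the BMP antagonist Gremlin 1 and of R-spondins. BMP signals from fibroblasts nearer the lumen favour differentiation of the epithelium, whereas Wnt ligands with R-spondins, and antagonists of BMP, favour stem cells.

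The trophocytes described here were the 1913 cells that the authors' deposited annotation labels as CD81+ trophocytes, of 9359 cells from the small intestine and 15377 cells in the series. The series holds 2 single-cell libraries from healthy, untreated mice, 1 from small intestine and 1 from colon, each of cells sorted as negative for Epcam (epithelium) and CD45 (leukocytes). The tissue was digested for 45 min (small intestine) or 60 min (colon), and about 16000 cells were loaded per run. The labels do not give the strain, age or sex of the mice or how many were used, and each tissue is 1 library. There is therefore no replicate check and no test between types, and every interval below covers counting error only. The other annotated types of the small intestine were 2823 CD81- fibroblasts (CD81- FBs), 1109 subepithelial myofibroblasts (SEMFs), 2498 lymphatic endothelial cells (LECs), 524 blood endothelial cells (BECs) and 468 cells labelled smooth muscle (SMCs); a group of 24 proliferating cells was too small to compare. Among the barcodes, 2 of the trophocytes also occurred in the colon library.

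Trophocytes made up 20.4% of the small intestinal cells (exact binomial 95% interval 19.6 to 21.3%) and 32.7% of its fibroblasts. They gave 15029263 unique molecular identifiers (UMIs, each a captured transcript), with a median of 7807 UMIs and 2825 genes per cell, against medians of 6977 UMIs in CD81- FBs, 5510 in SEMFs and 4117.5 in LECs. The level of a gene is given below in CPM, its UMIs summed over a type per 1000000 UMIs of that type, with an exact Poisson 95% interval. A gene is called higher or lower where its level differs by 2-fold or more after 10 CPM is added to both levels, among genes with at least 100 UMIs. A log2 ratio quoted for a single gene is the plain ratio of levels with an exact conditional binomial 95% interval, unless it is said to be after adding 10 CPM; list medians are all on the latter scale. Genes named as highest or lowest in a comparison were ranked on that scale among those with a UMI in at least 10% of the cells of the group that is higher.

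The label was first set against its markers. Ackr4, a scavenger receptor that removes chemokines, stood at 617 CPM in trophocytes (95% interval 605 to 630.1), 37.1 in CD81- FBs, 4.45 in SEMFs, 8.55 in SMCs, 5.47 in BECs and 7.49 in LECs. Grem1, the BMP antagonist Gremlin 1, stood at 1298 CPM in trophocytes (95% interval 1280.0 to 1317), 168 in CD81- FBs, 8.89 in SEMFs, 162 in SMCs, 3.65 in BECs and 11.7 in LECs. For both genes the trophocyte level was above every other type, by 16.6-fold for Ackr4 and 7.72-fold for Grem1. Pi16, a peptidase inhibitor that marks adventitial fibroblasts, was at 163 CPM in trophocytes (95% interval 156 to 169), 19.2 in CD81- FBs, 2.91 in SEMFs, 4.99 in SMCs, 2.74 in BECs and 1.7 in LECs. Piezo2, a mechanically gated channel, was at 852 CPM in trophocytes and 50.2 in CD81- FBs, with LECs at 514. Cd81, the tetraspanin of the label, was at 560.4 CPM in trophocytes (95% interval 548 to 572), 8.14 in CD81- FBs, 4.45 in SEMFs, 14.3 in SMCs, 603 in BECs and 242 in LECs. Cd81 thus separated trophocytes from the other fibroblasts, with a log2 ratio of 6.11 (5.88 to 6.34) to CD81- FBs, but BECs were slightly above trophocytes. Both of these fibroblast labels are named for CD81, so this ratio is no independent check of the label. Dkk2, a secreted Wnt inhibitor, was at 248 CPM against 198 in CD81- FBs, a log2 ratio of only 0.32 (0.26 to 0.39). Of the 6 markers 5 were highest in trophocytes, the exception being Cd81.

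**Figure D1:**
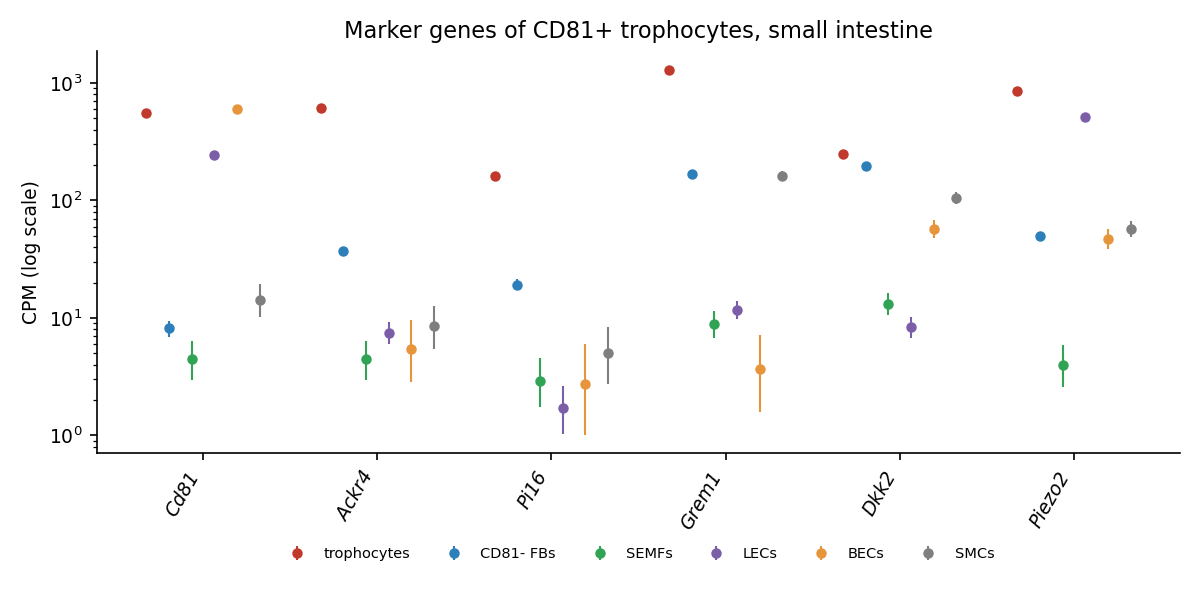
Levels of the 6 marker genes in the 6 compared types of the small intestine, as CPM on a log axis, with points for each type and bars for the Poisson 95% interval. Trophocytes are the highest type for Ackr4, Pi16, Grem1, Dkk2 and Piezo2, and BECs are the highest for Cd81.

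Not every trophocyte yielded each marker. To set types of unequal depth side by side, each cell was thinned to 2000 UMIs, which left out 19 trophocytes with fewer. After thinning, Cd81 was found in 63.6% of trophocytes (88.7% before thinning), 1.37% of CD81- FBs and 36.8% of LECs. Ackr4 was found in 64.4% of trophocytes (89.3% before thinning), 5.52% of CD81- FBs and 0.766% of LECs. Grem1 was found in 71.6% of trophocytes and 20.1% of CD81- FBs, and Dkk2 in 25.8% and 20%. Pi16 was found in 17.4% of trophocytes (31.1% before thinning), 2.56% of CD81- FBs and 0.255% of LECs. Of the 1894 thinned trophocytes 40 had none of the 6 markers, 550 had exactly 3 and 10 had all 6.

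Defining markers of cell classes other than fibroblasts were low in trophocytes. Summed over each list, trophocytes had 56.4 CPM of 6 lymphatic markers against 20691 in LECs, 13 of 7 blood endothelial markers against 7323 in BECs, and 51.0 of 6 smooth muscle markers against 14808 in SMCs. Immune markers summed to 8.25 CPM with Cd3e at 0, epithelial markers to 0.732, glial markers to 3.46 with Sox10 at 0, and proliferation genes to 0.998 with Ccnb1 at 0. Pericyte markers summed to 141 CPM, of which Rgs5 gave 127, below the 778 CPM of Rgs5 in CD81- FBs. Of 4 mesothelial markers only Wt1 was listed in the matrix, with 55 UMIs in 17 trophocytes and none in the other types compared. The cells labelled SMCs carried the fibroblast gene Adamdec1 at 9211 CPM, above the 8191 of CD81- FBs. Markers of the other fibroblast types were not all low in trophocytes. Of 4 CD81- FB markers 2, Adamdec1 and Edil3, were lower than in CD81- FBs, and 2, P2ry14 and Edn3, were within 2-fold. Of 7 SEMF markers all 7 were lower than in SEMFs, where 7.86% of all genes were lower. Against CD81- FBs 1 of those 7, F3, was higher, Bmp5 and Nrg1 were lower and 4 were within 2-fold. Of all genes compared with CD81- FBs 2.24% were higher and 2.8% lower. No doublet caller was run.

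Trophocytes also differed from the other fibroblasts in genes that respond within minutes to tissue digestion and other stress. These immediate early and heat shock genes include Fos and Egr1, which encode transcription factors, Dusp1, a phosphatase that damps kinase signals, and Hspa1a, a chaperone. The 14 genes together took a median of 2.68% of the UMIs of a trophocyte, 0.459% in CD81- FBs, 0.217% in SEMFs, 1.30% in LECs, 1.41% in SMCs and 3.51% in BECs. Fos stood at 4334 CPM in trophocytes (95% interval 4301 to 4368), 1230.1 in CD81- FBs, 346 in SEMFs, 2591 in SMCs, 5991 in BECs and 2035 in LECs. Against CD81- FBs 12 of the 14 were higher and none lower, with a median log2 ratio of 1.73 after adding 10 CPM, where 2.24% of the 11573 genes compared were higher, 2.8% were lower and the median over all of them was -0.14. Against SEMFs all 14 were higher, with a background of 6.2%. Hspa1a and Hspa1b are near-identical copies whose reads may not be told apart. Digestion was the same for all types of this library, and the part of this response in the other differences was not tested beyond the recomputed ratios that follow. As a check chosen after seeing the data, the ratios were recomputed over cells in which these genes took at most 1.5% of UMIs, which kept 248 trophocytes, 2236 CD81- FBs and 1072 SEMFs. In those cells 245 genes were higher and 336 lower than in CD81- FBs, against 259 and 324 over all cells. Of 298 named and list genes 6 were then no longer past 2-fold against CD81- FBs (Cxcl1, Id3, Ltbp1, Nkx2-3, Timp3 and Tnfsf13b, the last at -0.83) and 16 newly were. The latter were Bmp4 (-1.34), which was lower, and Fgf7 (1.33), Ccl21a (3.33), Cxcl13 (1.24), Ccl7 (1.01), C7 (1.00), Ly6c1 (1.26), Mfap5 (1.05), Dpt (1.02), Col1a1 (1.04), Col1a2 (1.01), Dcn (1.00), Lamb2 (1.06), Adamts1 (1.06), Slit3 (1.10) and Zfp423 (1.02), which were higher; the values in brackets are log2 ratios after adding 10 CPM in cells low in dissociation genes. The values of Ccl21a and Ccl7 rest on few cells. Over all trophocytes 1 cell held 469 of the 669 Ccl21a UMIs, and 10 cells held 61.9% of the Ccl7 UMIs. Against SEMFs 7 were no longer past 2-fold, namely Cxcl1 (2.43 to 0.35), Bmper (1.40 to 0.97), Cd151 (-1.11 to -0.93), Col4a3 (1.12 to 0.69), Nkx2-3 (-1.10 to -0.93), Smad7 (1.17 to 0.56) and Tslp (1.03 to 0.88), and 12 newly were.

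**Figure D2:**
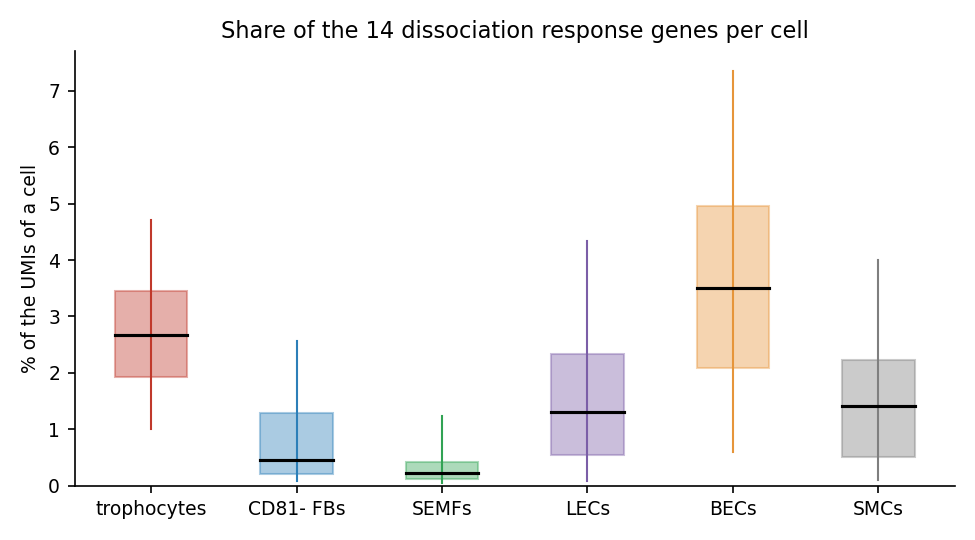
Share of the UMIs of a cell given by the 14 dissociation response genes, in percent, by type; boxes span the quartiles, black lines are medians and whiskers run to the outer percentiles (p05 and p95). Trophocytes have a median of 2.68%, above both other fibroblast types and below BECs at 3.51%.

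Because these genes were higher together, the 250 bases upstream of their start sites (RefSeq, GRCm38.p6) were searched on both strands for motifs; 12 of the 14 had an entry. In all 16 motifs were searched, 4 first and 12 more after the first 4 had matched next to nothing. Of the first 4, the cAMP response element TGACGTCA was in 1 of the 12 promoters (Dusp1) and in 2.49% of the 13111 promoters of listed genes. The AP-1 motif TGANTCA (4.64% of all promoters), a strict serum response element (0.0229%) and the palindromic EBF motif (0.969%) were in none of the 12. Elements more than 250 bases upstream, of Fos or any other gene, lie outside these windows and were not searched. Of the later motifs, TGACG, the core of the cAMP response element, was in 6 of 12 and in 24.8% of all promoters. GGGCGG was in 10 of 12 (54.0% of all), GGAAGT in 4 (22.2%), TGACGT in 3 (9.33%), GCGTCAC in 3 (4.29%), TGACGTNA in 2 (3.95%), the same with a longer tail of any bases in 2 (3.94%), TATAAA in 1 (7.26%) and the loosest spelling of the serum response element in 1 (1.40%). The 3 other looser spellings of that element were in none. Several of these overlap, since TGACG lies within TGACGT, TGACGTNA and TGACGTCA and its reverse complement within GCGTCAC. With 16 motifs looked at, and most chosen after the first had been seen, the shares are a description only. None of the first 4 was in the promoters of the 5 marker genes or the 14 leading trophocyte genes that had an entry. The windows of Fos and Dusp1 are shown as examples of the best known genes of this response. Only TGACG, one of the later motifs, and TGACGTCA are marked, in capitals on either strand. Both windows hold TGACG, which was in 6 of the 12 promoters.
Fos, chr12:85473640-85473889, plus strand: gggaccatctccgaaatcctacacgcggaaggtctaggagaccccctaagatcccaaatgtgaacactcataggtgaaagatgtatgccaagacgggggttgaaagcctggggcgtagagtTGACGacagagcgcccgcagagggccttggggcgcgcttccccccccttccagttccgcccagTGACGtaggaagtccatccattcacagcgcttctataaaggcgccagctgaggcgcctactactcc
Dusp1, chr17:26508473-26508722, minus strand: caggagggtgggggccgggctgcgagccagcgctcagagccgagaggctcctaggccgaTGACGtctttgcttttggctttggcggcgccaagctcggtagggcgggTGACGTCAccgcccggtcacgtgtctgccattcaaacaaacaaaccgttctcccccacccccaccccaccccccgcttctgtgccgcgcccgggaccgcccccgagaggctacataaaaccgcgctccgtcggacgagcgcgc
Fos holds TGACG at -129 and -66 from the start site, and Dusp1 holds TGACGTCA at -143 and a further TGACG at -191.

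Against all other types at once, 116 of 12918 genes were higher in trophocytes than in the highest other type, 0.898% of them. The 15 with the largest ratio included Ackr4, Cilp, Slit2, Alk, Grem1, Adgrb3, Il1rapl1, Cldn10, Inmt, Pi16, Col8a1, Pcolce2, Gpc3 and Chodl. Cilp, a matrix protein first known from cartilage, was at 530.4 CPM in trophocytes (95% interval 519 to 542), 33.9 in CD81- FBs, 35.3 in SEMFs, 11 in SMCs, 3.19 in BECs and 4.1 in LECs. Slit2, a secreted guidance cue read by Robo receptors, was at 598 CPM in trophocytes (95% interval 586 to 611), 59.3 in CD81- FBs, 10.7 in SEMFs, 22.5 in SMCs, 41.1 in BECs and 8.21 in LECs. The nearest type was 15-fold lower for Cilp and 10.1-fold lower for Slit2. Among the matrix genes, Col8a1, a short-chain collagen, was at 501 CPM in trophocytes, 76.7 in CD81- FBs and 1.38 in SEMFs. Pcolce2, an enhancer of procollagen processing, was at 462 CPM in trophocytes, 71.1 in CD81- FBs and 3.37 in SEMFs, and Gpc3, a heparan sulfate proteoglycan of the cell surface, at 282 CPM in trophocytes, 40.4 in CD81- FBs and 2.3 in SEMFs. Alk, a receptor tyrosine kinase, was at 95.5 CPM in trophocytes, 3.92 in CD81- FBs and 0.153 in SEMFs, and Inmt, an amine methyltransferase, at 63.4 CPM in trophocytes, 1.69 in CD81- FBs and 2.15 in SEMFs. Adgrb3, an adhesion receptor, was at 73.3 CPM in trophocytes and at most 1.43 in any other type. Chodl, a membrane lectin, was at 50.8 CPM in trophocytes and at most 0.794 elsewhere.

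Of the other fibroblasts, CD81- FBs differed from trophocytes in fewer genes than SEMFs did (259 higher and 324 lower). The largest ratios to CD81- FBs belonged to Cd81, for which both labels are named, and to Ogn, Piezo2, Ackr4, Brinp3, Cilp, Prss23, Adamtsl1, Mir99ahg and Slit2. Several were not particular to trophocytes: Ogn, a small proteoglycan, was at 1008 CPM in trophocytes, 56.8 in CD81- FBs and 1838 in SEMFs, so SEMFs were above trophocytes. Prss23, a secreted serine protease, was at 1574 CPM in trophocytes, 122 in CD81- FBs and 1321 in LECs. The lowest ratios belonged to Adgrl3, Adamdec1, Mmp10, Pde1c, Fhl2, Tnc, Dach1, Bmp5, Igfbp3 and Acta2. Adamdec1, a metalloprotease of mucosal fibroblasts, was at 149 CPM in trophocytes, 8191 in CD81- FBs and 2302 in SEMFs. Adgrl3, a latrophilin adhesion receptor, was at 6.65 CPM in trophocytes, 891 in CD81- FBs and 1762 in SEMFs, a log2 ratio of -7.07 (-7.36 to -6.78) to CD81- FBs. Fhl2, a LIM domain protein, was at 3.99 CPM in trophocytes, 231 in CD81- FBs and 306 in SEMFs, and Acta2, smooth muscle actin, at 17.6 CPM in trophocytes, 341 in CD81- FBs and 2017 in SEMFs. Trophocytes were low in all of these, and for Igfbp3 1 cell held 84 of their 277 UMIs.

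SEMFs differed from trophocytes in more genes, with 669 of 10791 higher in trophocytes and 848 lower (6.2% and 7.86%; median over all genes -0.27). The largest ratios belonged to Grem1, Piezo2, C3, Prss23 and Col8a1 and the lowest to Sox6, Bmp5, Adgrl3, Pde1c and Tagln. C3, the central complement component, was at 2541 CPM in trophocytes, 953 in CD81- FBs and 36.6 in SEMFs. Sox6, a transcription factor, was at 8.98 CPM in trophocytes, 9.82 in CD81- FBs and 3519 in SEMFs, so trophocytes and CD81- FBs shared its low level. Tagln, a contractile protein, was at 21.2 CPM in trophocytes, 253 in CD81- FBs and 2605 in SEMFs.

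Beside the counts of list members below stand the shares of all genes compared. These were 2.24% higher and 2.8% lower against CD81- FBs, and 6.2% and 7.86% against SEMFs. Among signals to the epithelium, R-spondins, which amplify Wnt signals, were at higher levels in trophocytes than in both other fibroblast types. Rspo2 was at 140.3 CPM in trophocytes (95% interval 134 to 146), 32.5 in CD81- FBs, 0.92 in SEMFs, 21.4 in SMCs, 0.456 in BECs and 1.25 in LECs. Rspo3 was at 138 CPM in trophocytes (95% interval 132 to 144), 63.8 in CD81- FBs, 16.1 in SEMFs, 32.4 in SMCs, 31.5 in BECs and 281 in LECs, so LECs were above trophocytes. Rspo1 was at 11.8 CPM in trophocytes, 4.02 in CD81- FBs and 0.307 in SEMFs. Against CD81- FBs 2 of 3 R-spondins were higher (median log2 ratio 1.00 after adding 10 CPM); Rspo3 lay on the 2-fold line and fell short of it in 3 alternatives, the lowest value being 0.69. Against SEMFs all 3 were higher, with a median of 2.5.

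Wnt ligands did not follow. Of 6 compared with CD81- FBs none was higher and 1, Wnt4, was lower. Wnt4 was at 0.932 CPM in trophocytes, 34.1 in CD81- FBs and 113 in SEMFs. Wnt5a, a ligand of non-canonical signalling, was at 33.4 CPM in trophocytes, 23.5 in CD81- FBs and 209 in SEMFs, and Wnt2b, a canonical ligand, at 17.2 CPM in trophocytes, 18.3 in CD81- FBs and 2.3 in SEMFs. Of 5 secreted Wnt inhibitors 1, Frzb, was lower than in CD81- FBs, at 0.732 CPM in trophocytes, 44.9 in CD81- FBs and 1.69 in SEMFs. Sfrp1, another inhibitor, was at 999 CPM in trophocytes, 1482 in CD81- FBs and 68.8 in SEMFs, which set both CD81- FBs and trophocytes apart from SEMFs.

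BMP signals are made by ligands and held back by secreted antagonists. Of 7 genes on the list of ligands 3 were lower than in CD81- FBs (Bmp2, Bmp5, Bmp6) and 1 was higher (Gdf10). The median log2 ratio was -0.97, with 3 within 2-fold. Those 3 include Bmp1, a protease rather than a ligand, at 0.30 after adding 10 CPM. Bmp5 was at 3.86 CPM in trophocytes, 188 in CD81- FBs and 1539 in SEMFs, Bmp4 at 219.7 CPM in trophocytes, 441 in CD81- FBs and 525 in SEMFs, and Bmp2 at 53.5 CPM in trophocytes, 167 in CD81- FBs and 144 in SEMFs. Bmp7 and Bmp3, which were at 307 and 255 CPM in SEMFs, were at 0.333 and 0.399 in trophocytes. Gdf10, a divergent member of the family, was at 25 CPM in trophocytes, 1.04 in CD81- FBs and 0 in SEMFs. Of 8 secreted antagonists 4 were higher than in CD81- FBs (Grem1, Chrdl1 and Fst among them) and none lower, with a median of 1.07 and 4 within 2-fold. Against SEMFs 4 antagonists were higher and 2, Chrd and Twsg1, lower. Chrdl1, a chordin-like antagonist, was at 37.3 CPM in trophocytes, 0.0992 in CD81- FBs and 2.91 in SEMFs. Fst, follistatin, was at 20.3 CPM in trophocytes, 0.149 in CD81- FBs and 5.21 in SEMFs. Chrd, chordin itself, was at 40.5 CPM in trophocytes, 24 in CD81- FBs and 141 in SEMFs, so SEMFs were the highest fibroblast type. Of 9 BMP receptors and targets only Id3 was higher than in CD81- FBs, with a log2 ratio after adding 10 CPM of 1.04 over all cells and 0.25 over cells low in dissociation genes.

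**Figure D3:**
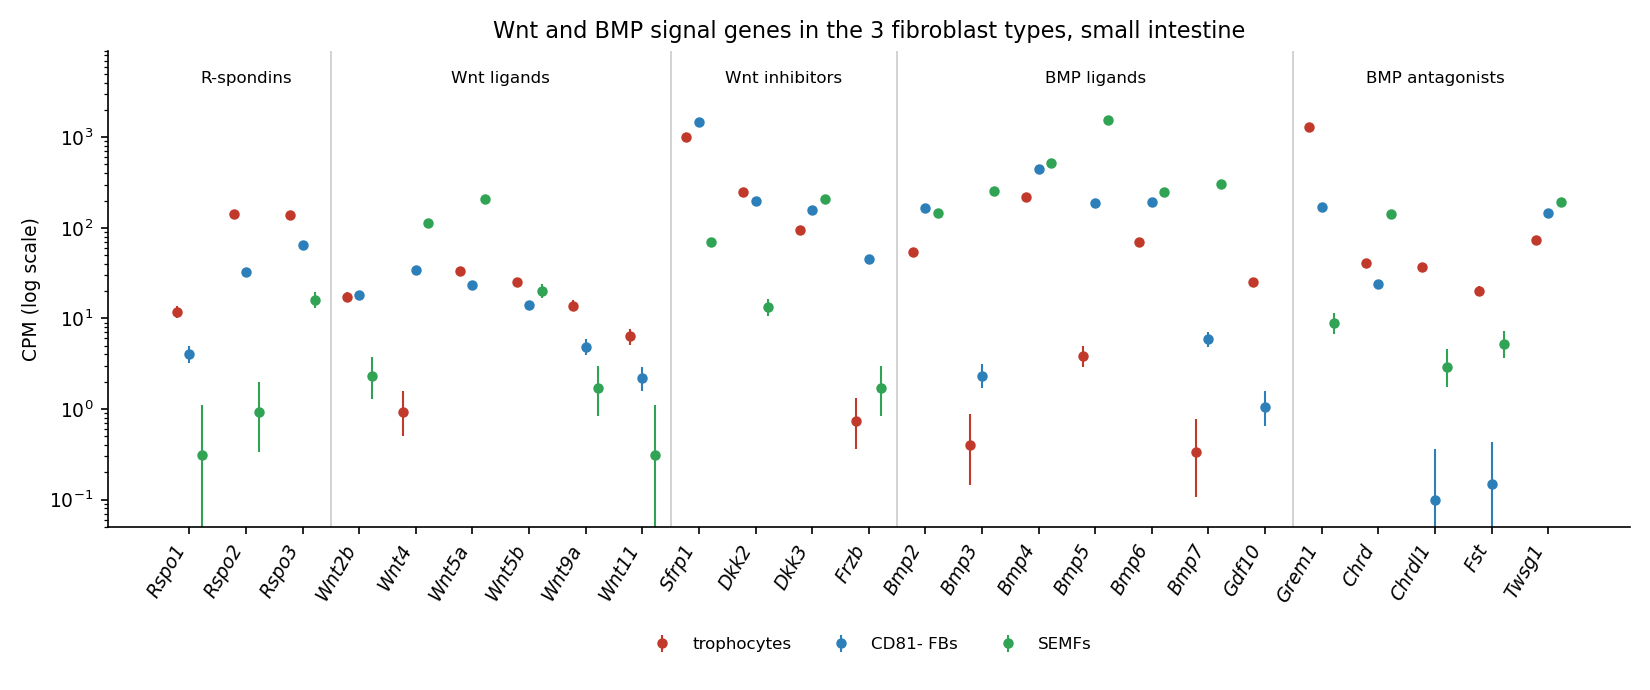
Levels of Wnt and BMP signal genes in trophocytes, CD81- FBs and SEMFs, as CPM on a log axis with Poisson 95% intervals; a type with no UMI of a gene is not drawn. Trophocytes are the highest of the 3 types for Rspo2, Rspo3, Grem1, Chrdl1, Fst and Gdf10 and the lowest for Bmp4, Bmp5 and Bmp7.

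Among growth factors, 2 of 18 were higher than in CD81- FBs and 7 were lower (Fgf10, Hgf, Nrg1, Ereg, Areg, Kitl, Ntf3). Vegfd, a lymphatic growth factor, was at 77.7 CPM in trophocytes (95% interval 73.3 to 82.3), 17.8 in CD81- FBs, 6.29 in SEMFs, 2.85 in SMCs, 8.21 in BECs and 5.18 in LECs. Ereg, an EGF family ligand, was at 36.3 CPM in trophocytes, 429 in CD81- FBs and 196 in SEMFs, and Nrg1, another, at 2.4 CPM in trophocytes, 65.6 in CD81- FBs and 66.4 in SEMFs. Fgf10 was at 1.06 CPM in trophocytes, 109.8 in CD81- FBs and 4.6 in SEMFs. Kitl, the ligand of the Kit receptor, was at 32 CPM in trophocytes, 209.9 in CD81- FBs and 165 in SEMFs. Fgf7, which acts on epithelium, was at 53.7 CPM in trophocytes, 25.1 in CD81- FBs and 0.767 in SEMFs.

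Of 13 chemokines and scavenger receptors 3 were higher than in CD81- FBs (Ackr4, Cxcl1, Ccl19) and 3 lower (Cxcl14, Cxcl16, Ccl11). Cxcl1, a neutrophil chemokine, was at 195 CPM in trophocytes, 74.5 in CD81- FBs and 27.9 in SEMFs, with a log2 ratio after adding 10 CPM of 1.28 over all cells and 0.02 over cells low in dissociation genes. Ccl19, a ligand of Ccr7, was at 31.3 CPM in trophocytes, 7.34 in CD81- FBs and 4.75 in SEMFs, but 10 cells held 52.1% of its 470 UMIs and 1 cell held 114; its log2 ratio after adding 10 CPM was 1.25 over all cells and 0.52 without cells holding 2 or more UMIs of markers of another class. Ccl21a, another Ccr7 ligand and a lymphatic marker, had 469 of its 669 trophocyte UMIs in 1 cell, without which its level was 13.3 CPM. Ccl11, eotaxin, was at 259.7 CPM in trophocytes, 1115 in CD81- FBs and 1509.9 in SEMFs. Among 8 cytokines Il6 alone was higher than in CD81- FBs, at 186 CPM in trophocytes (95% interval 179 to 193), 24.6 in CD81- FBs, 0.613 in SEMFs, 32.1 in SMCs, 36.9 in BECs and 3.66 in LECs. Its log2 ratio after adding 10 CPM was 2.51 over all cells and 1.69 over cells low in dissociation genes. Il33, an alarmin, was at 267 CPM in trophocytes, 239 in CD81- FBs and 34.2 in SEMFs. Il34, a ligand of the Csf1 receptor, was lower, at 3.66 CPM in trophocytes, 23 in CD81- FBs and 266 in SEMFs.

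Of 11 complement genes compared with CD81- FBs 3 were higher (C3 and Cfb among them) and none lower, with a median log2 ratio of 0.35, and against SEMFs 7 of 11 were higher, with a median of 2.00. Cfb, factor B of the alternative pathway, was at 264 CPM in trophocytes, 104 in CD81- FBs and 37.6 in SEMFs. C4b was at 1038 CPM in trophocytes, 851 in CD81- FBs and 44.3 in SEMFs, close to CD81- FBs. The adventitial fibroblast genes had 3 of 14 higher than in CD81- FBs (Pi16, Igfbp6, Anxa3), none lower and a median of 0.58. In cells low in dissociation genes Ly6c1, Mfap5 and Dpt were past 2-fold as well, which made 6 of 14. Igfbp6, a binding protein of insulin-like growth factors, was at 331 CPM in trophocytes, 94 in CD81- FBs and 5.21 in SEMFs. Cd34, a sialomucin, was at 543 CPM in trophocytes, 419 in CD81- FBs and 72.1 in SEMFs, and Cd55, a complement decay factor, at 525 CPM in trophocytes, 538 in CD81- FBs and 18.9 in SEMFs, so trophocytes and CD81- FBs had similar levels of the latter. Pi16 is also 1 of the 6 markers against which the label was set above.

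Against CD81- FBs matrix genes differed in single members rather than as lists, with list medians from -0.13 to 0.53. Against SEMFs whole lists differed more. Of 18 elastic fibre genes 10 were higher than in SEMFs and 5 lower, with a median of 1.14. Of 16 basement membrane genes 3 were higher than in SEMFs and 7 lower, with a median of -0.72. The median over all genes against SEMFs was -0.27. Of 12 fibrillar and associated collagens 1, Col14a1, was higher than in CD81- FBs, at 2067 CPM in trophocytes, 883 in CD81- FBs and 67.3 in SEMFs, and 1, Col12a1, lower, at 32.6 CPM in trophocytes, 150.1 in CD81- FBs and 823 in SEMFs. Col1a1 was at 5149 CPM in trophocytes, 2788 in CD81- FBs and 1431 in SEMFs. Of 16 basement membrane genes 3 were higher (Col4a4, Col4a5, Col4a6) and 3 lower (Nid2, Col15a1, Col18a1). Col4a5 was at 83.8 CPM in trophocytes, 6.35 in CD81- FBs and 588 in SEMFs and Nid2, which links laminin to collagen, at 1.33 CPM in trophocytes, 40.3 in CD81- FBs and 64.2 in SEMFs. Of 18 elastic fibre genes 1 was higher (Emilin2) and 4 lower (Fbln5, Mfap4, Ltbp1, Efemp1). Mfap4 was at 560.1 CPM in trophocytes, 1149 in CD81- FBs and 178 in SEMFs, and Ltbp1 had a log2 ratio after adding 10 CPM of -1.04 over all cells and -0.96 over cells low in dissociation genes. Of 9 small leucine-rich proteoglycans Lum and Ogn were higher, Lum at 2686 CPM in trophocytes, 1139 in CD81- FBs and 862 in SEMFs. Of 15 matrix proteases and inhibitors none was higher and Mmp10 and Timp3 were lower, Mmp10 at 3.86 CPM in trophocytes, 261 in CD81- FBs and 55.7 in SEMFs; the ratio of Timp3 was -1.40 over all cells and -0.83 over cells low in dissociation genes.

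Of 21 genes on the list of Hedgehog and fibroblast transcription factors, 3 were higher than in CD81- FBs (Ebf1, Klf4, Osr1) and 5 lower (Hhip, Foxf2, Nkx2-3, Tcf21, Nr2f1). The list also holds genes that are not transcription factors, namely Hhip, a Hedgehog inhibitor, and Ptch1, a Hedgehog receptor (-0.66, inside 2-fold). Ebf1 was at 1074 CPM in trophocytes (95% interval 1058 to 1091), 135 in CD81- FBs, 63.5 in SEMFs, 36 in SMCs, 1573 in BECs and 519 in LECs, so BECs were above trophocytes. Osr1, a factor of mesenchymal progenitors, was at 87.3 CPM in trophocytes (95% interval 82.6 to 92.2), 22.7 in CD81- FBs, 7.36 in SEMFs, 9.98 in SMCs, 0 in BECs and 10.7 in LECs, with trophocytes the highest. Klf4, itself an early response gene, had a ratio of 1.35 over all cells and 1.03 over cells low in dissociation genes. Foxf2 was at 8.45 CPM in trophocytes, 57.9 in CD81- FBs and 139.8 in SEMFs, and Nkx2-3 had a ratio of -1.10 over all cells and -0.995 over cells low in dissociation genes. Among 8 retinoid genes 3 were higher (Rbp4 and Dhrs3 among them) and 4 lower (Aldh1a2, Aldh1a3, Rdh10, Lrat). Aldh1a3, which makes retinoic acid, was at 18 CPM in trophocytes, 263 in CD81- FBs and 86.3 in SEMFs. Rdh10, which makes retinal, was at 21.8 CPM in trophocytes, 184 in CD81- FBs and 316 in SEMFs. Of 13 guidance genes Slit2, Ntn4 and Sema3d were higher and Robo2 and Unc5c lower. Robo2, a Slit receptor, was at 351 CPM in trophocytes, 1286 in CD81- FBs and 1022 in SEMFs. Of 15 tetraspanins Cd81 alone, for which both labels are named, was higher and Cd82 alone lower. Cd82 was at 5.92 CPM in trophocytes, 25.9 in CD81- FBs and 29.6 in SEMFs. Of 6 mechanosensitive channels Piezo2 was higher and Kcnk2 lower, Piezo1 being at 33.3 CPM in trophocytes, 45.1 in CD81- FBs and 21.3 in SEMFs. Of 7 adipogenic genes none was higher and Lpl was lower, at 85.2 CPM in trophocytes, 228 in CD81- FBs and 154 in SEMFs. Of all 11573 genes compared with CD81- FBs, 2.24% were higher and 2.8% lower. Over the signal, programme and matrix lists together, 38 genes were higher than in CD81- FBs and 41 lower. Where no median is given above, the medians of these lists of the log2 ratio to CD81- FBs lay between -0.65 (retinoid genes) and 0.53 (small leucine-rich proteoglycans), around the -0.14 of all genes. Those of growth factors (-0.38) and guidance genes (-0.35) were below it and those of Wnt ligands and of chemokines (0.40 each) above it.

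**Figure D4:**
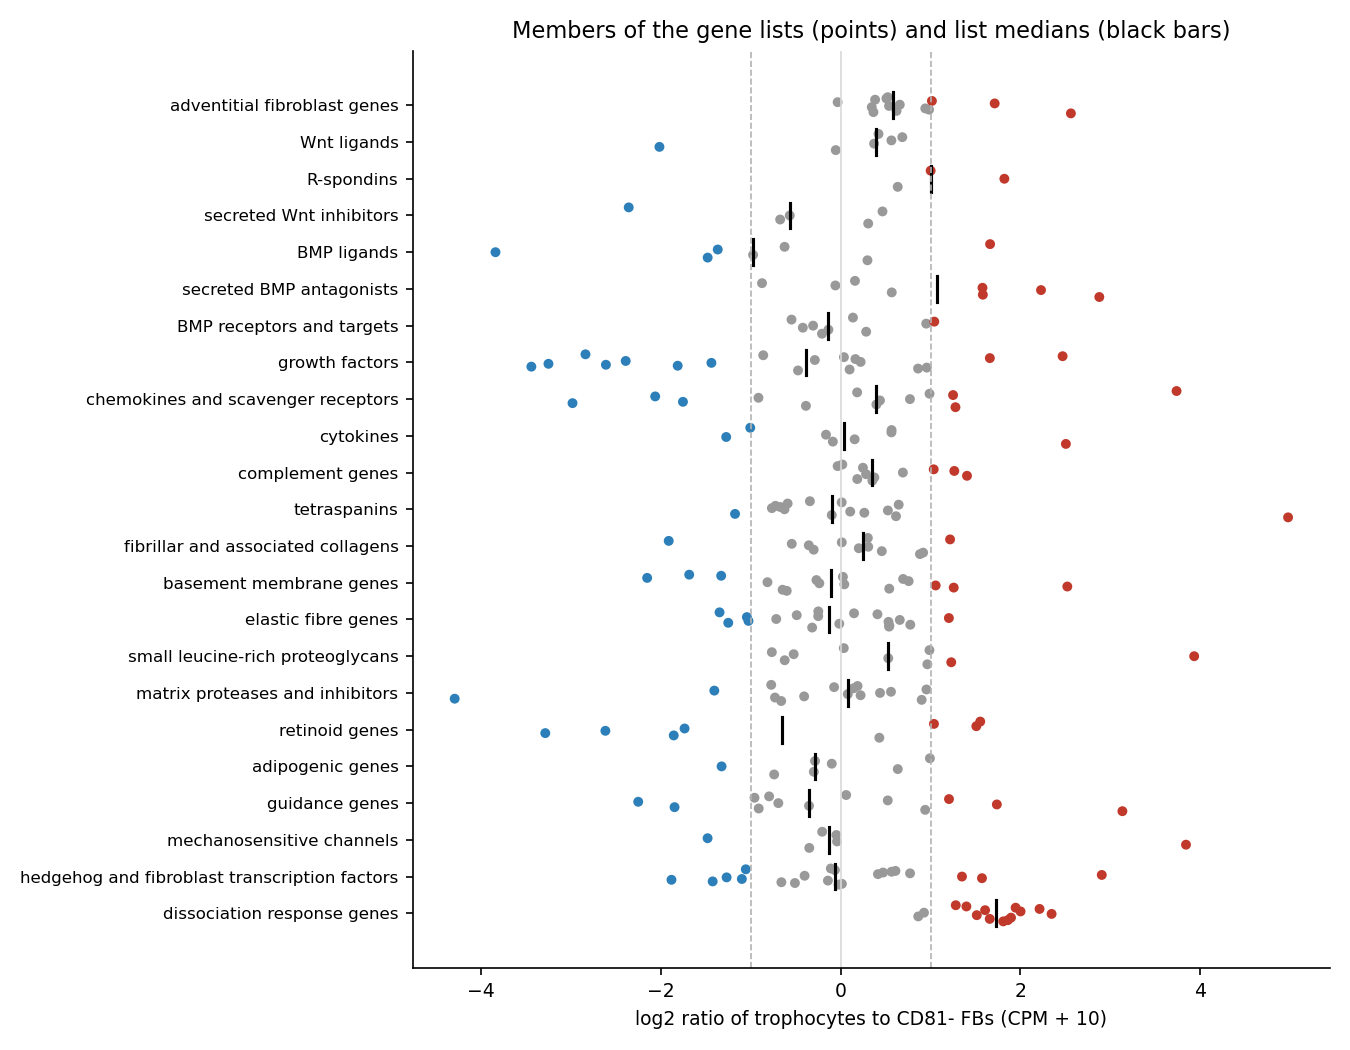
Log2 ratio of trophocytes to CD81- FBs after adding 10 CPM, for each member with at least 100 UMIs (points) of the signal, programme, matrix and dissociation response lists, with list medians as black bars and dashed lines at 2-fold. Among the lists drawn, which leave out the cell type marker lists, the dissociation response genes have the highest median (1.73), followed by secreted BMP antagonists (1.07), and BMP ligands the lowest (-0.97). The list of BMP ligands includes Bmp1, a protease.

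Trophocytes varied among themselves. Over 1894 thinned cells the variance of a gene's UMIs was 1.04 times its mean for the median gene. The 10 genes with the highest ratio among those in at least 5% of cells were Cxcl10 (17.3), Malat1 (10.8), Mmp3 (8.76), Mgp (6.66), Igfbp5 (5.99), Gsn (5.85), Dcn (4.94), Tnfaip6 (4.90), Col1a1 (4.77) and Sparc (4.76). Cxcl10, an interferon-induced chemokine, was in 8.66% of cells, with up to 69 UMIs in a cell, and Mmp3, stromelysin, in 10.7%, with up to 33. Igfbp5 was in 9.19%. These transcripts were absent from most trophocytes at this depth, in contrast to Dcn, decorin, which was in all of them.

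Classes made from the UMIs of Pi16 and Ackr4 gave 122 cells with Pi16 only, 1012 with Ackr4 only, 208 with both and 552 with neither. A cell without a UMI may still express the gene, so these classes are a description. Ackr4 was in 63.0% of Pi16-positive and 64.7% of Pi16-negative cells, a similar share. Grem1 was in 49.7% of Pi16-positive cells (exact binomial 95% interval 44.2 to 55.2%) and 76.3% of Pi16-negative cells (74.1 to 78.4%), Dkk2 in 9.09% and 29.3%, and Piezo2 in 44.2% and 63.7%. Cd81 was in 69.1% and 62.4%. Grem1, Dkk2 and Piezo2 also went together among themselves: Piezo2 was in 68.2% of Grem1-positive cells and 40.2% of the others.

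Between the 330 Pi16-positive and 1564 Pi16-negative cells 36 of 5241 genes were higher (0.687%) and 57 lower (1.09%), Pi16 itself set aside. The highest were Igfbp5, Npy1r, Ackr3, Tmem100, Fxyd5, Anxa3, Timp3, Sntb1, Cmah and Ccn2. Igfbp5 was at 414 against 64.6 CPM, a log2 ratio of 2.68 (2.41 to 2.95). Npy1r, a neuropeptide Y receptor, was at 121 against 28.5 CPM, and Ackr3, another chemokine scavenger, at 371 against 105 CPM. The lowest were Alk, Apoe, Cxcl13, Rgs5 and Lrrtm3. Alk was at 12.1 against 124 CPM, a log2 ratio of -3.35 (-4.57 to -2.36). Apoe, apolipoprotein E, was at 255 against 1262 CPM, and Cxcl13, a B cell chemokine, at 30.3 against 184 CPM. Of 12 adventitial fibroblast genes 6 were higher in Pi16-positive cells (Ly6c1, Mfap5, Igfbp6, Cd55, Anxa3, Cd248) and none lower, with a median log2 ratio of 1.02, where the median over all genes was 0.02. Mfap5, a microfibril protein, was at 1144 against 478 CPM, and Cd55 at 952 against 394 CPM. The 14 dissociation response genes had a median of -0.15, with none past 2-fold.

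**Figure D5:**
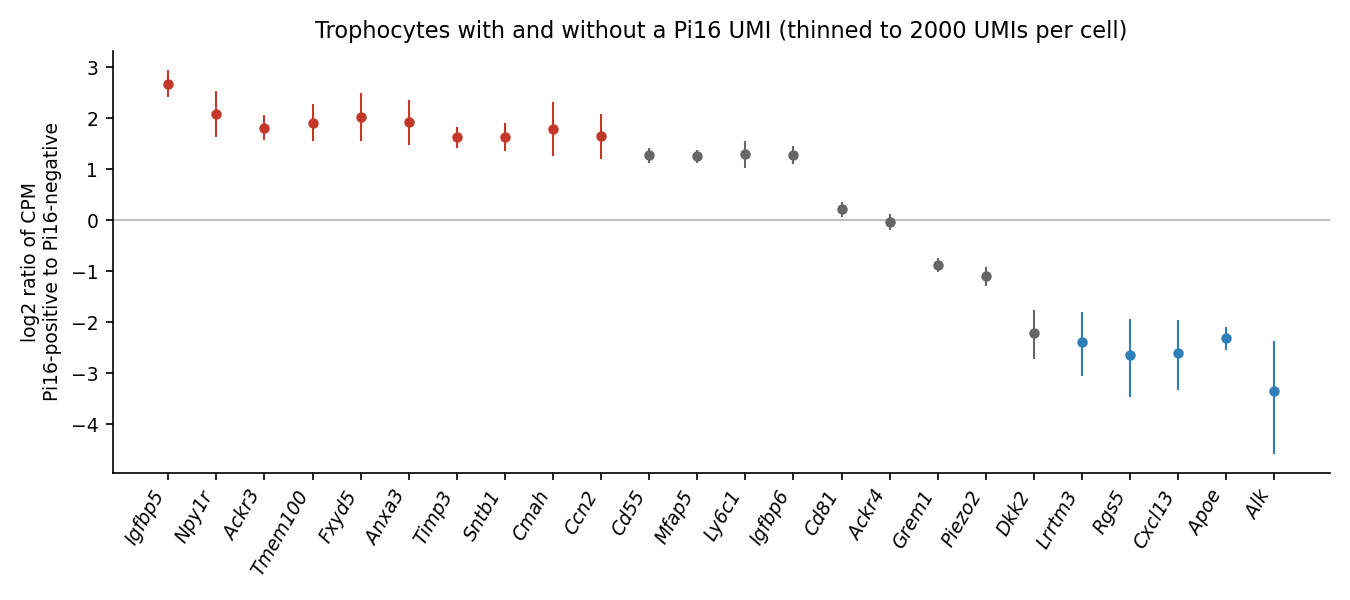
Log2 ratio of levels in trophocytes with a Pi16 UMI to those without, after thinning to 2000 UMIs per cell, with exact binomial 95% intervals; red points are the 10 highest genes, blue points the 5 lowest and grey points marker and adventitial genes. Igfbp5 is the highest at 2.68, Ackr4 lies at -0.03 and Alk is the lowest at -3.35.

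In the split by Ackr4 no gene of 5241 was higher in Ackr4-positive cells by the 2-fold rule and 6 were lower (0.114%), namely Ccl21a, Ptn, Ccl19, Inmt, Gdf10 and Apbb2. Of these only Inmt was found in at least 10% of Ackr4-negative cells. Inmt was at 43 against 128 CPM in Ackr4-positive and Ackr4-negative cells, and Aldh1a2, a retinaldehyde dehydrogenase, at 28.3 against 63.8 CPM, which was inside 2-fold after adding 10 CPM. Among genes found in at least 10% of Ackr4-negative cells Olfr1033, B3galt1 and Rgs7bp came next, also inside 2-fold. The highest gene by the same filter in Ackr4-positive cells, Acad11, an acyl-CoA dehydrogenase, was at 60.2 against 33.4 CPM, followed by Musk, Trhde, Acaa1a and Rybp.

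The same label exists in the colon library, with 875 cells, and its ratio to the 3631 colon CD81- FBs was set beside that of the small intestine. Each tissue is 1 library, digested for a different time, so tissue and library cannot be told apart. In the colon 316 of 10996 genes were higher in trophocytes (2.87%) and 315 lower (2.86%). Of the 237 genes higher in the small intestine and measured in both, 140 were also higher in the colon, 59.1% of the small intestinal and 44.3% of the colon genes. Of 299 lower genes 163 were shared, 54.5% and 51.7%. Ackr4 was at 312 CPM in colon trophocytes and 3 in colon CD81- FBs, Pi16 at 291 CPM in colon trophocytes and 8.34 in colon CD81- FBs and Cilp at 630.4 CPM in colon trophocytes and 32.5 in colon CD81- FBs, each with the same direction as in the small intestine. Grem1 was at 573 CPM in colon trophocytes and 336 in colon CD81- FBs, a log2 ratio of 0.77 where that of the small intestine was 2.95. Dkk2 was at 0.628 CPM in colon trophocytes and 4.65 in colon CD81- FBs, and Alk at 1.26 CPM in colon trophocytes and 5.79 in colon CD81- FBs, so neither was higher in colon trophocytes. Rspo2 was at 6.75 CPM in colon trophocytes and 2.87 in colon CD81- FBs and Rspo3 at 58.6 CPM in colon trophocytes and 60.4 in colon CD81- FBs. Ebf1, at 1805 CPM in colon trophocytes and 22.9 in colon CD81- FBs, and C3, at 1279.8 CPM in colon trophocytes and 158 in colon CD81- FBs, had larger ratios in the colon, with log2 ratios of 6.30 and 3.02. Osr1 was at 52 CPM in colon trophocytes and 91.1 in colon CD81- FBs, a direction opposite to that in the small intestine, though the difference between tissues was not tested. The dissociation response genes took a median of 2.21% of UMIs in colon trophocytes and 0.972% in colon CD81- FBs.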

How the data were processed

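Single-cell RNA-seq (10x Genomics 3' kit, version 3.1, per the labels' protocols) was made from sorted stromal cells of mouse small intestine and colon, 1 library each. Per the submitters' processing notes Cell Ranger 7.1.0, Seurat 4 and mm10 were used; filters on cells and the method of naming cell types are not given in the sources used here. The deposited matrices hold raw UMI counts and natural log values, which equal ln(1 + UMIs × 10000 / the cell's total); the deposited metadata give the cell types.

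Raw counts were summed per annotated type in Python 3.11.15 (numpy 2.4.6, scipy 1.17.1) and divided by the type's total (CPM). Genes were called at 2-fold after adding 10 CPM, with at least 100 UMIs; no test was made, since each tissue is 1 library. Intervals are exact (95%) and cover counting error only. In simulated counts with 200 changed genes, against CD81- FBs (11573 genes), intervals covered 95% of the changed values. Those counts were drawn from the Poisson model that the intervals assume, so this checks the calculation only. It cannot show how the intervals hold where cells vary beyond counting error. For shares, cells were thinned to 2000 UMIs (seed 1).

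Named genes were the 15 highest against every other type, the 10 highest and lowest against CD81- FBs, the 5 against SEMFs, the leading genes of the Pi16 and Ackr4 splits, the 10 most variable genes, and the gene lists; some genes these rules name are not reported here. Members and lists were chosen with earlier results of these data known. Alternatives changed the pseudocount, the UMI minimum, the totals, the thinning and the cells kept. Promoter windows come from RefSeq (GRCm38.p6, the same assembly as mm10).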

Additional observations from a re-analysis of the deposited data

Results flagged for a closer look

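Within the gene lists, 3 genes lay past 2-fold in opposite directions in the 2 tissues, as log2 ratios of trophocytes to CD81- FBs after adding 10 CPM. Over all genes measured in both tissues, 5 of the 237 higher in the small intestine (2.11%) were lower in the colon. Of the 299 lower in the small intestine 3 (1.00%) were higher in the colon. Each tissue is 1 library, so the difference between tissues was not tested. Col4a6, a basement membrane collagen chain, had 1.06 in the small intestine and -1.05 in the colon, a difference of 2.11. Hhip, a Hedgehog inhibitor, had -1.42 and 1.5, a difference of -2.92. Rbp4, the retinol carrier of plasma, had 1.04 and -1.27, a difference of 2.31.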

How the results depend on the processing

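With 1 library per tissue no replicate could be left out, and no paired analysis was possible because the tissues have 1 library each and no test was made. With 1 CPM added in place of 10, 199 genes were higher than in every other type, 468 higher and 675 lower than in CD81- FBs, and 1444 lower than in SEMFs. Leaving out fibroblasts with 2 or more UMIs of markers of another class kept 1662 trophocytes and 1416 CD81- FBs but 21 SEMFs, since SEMFs express muscle genes; against those 21 cells 1190 genes were higher and 1771 lower, and 2 ratios to SEMFs changed sign, Nrg1 (0.23) and Tspan2 (0.044). With Acta2, Tagln, Myh11 and Des not counted, an alternative chosen after seeing the data, 262 of the 265 ratios of named and list genes past 2-fold stayed past it. In cells low in dissociation response genes 252 of 265 did. Against CD81- FBs, leaving out cells with markers of another class brought Anxa3 (0.84), Cd82 (-0.82), Il34 (-0.98), Mfap4 (-0.94) and Nr2f1 (-0.95) inside 2-fold, and also Acta2 (-0.95) and Tagln (-0.81), which are among the genes the cells were left out by. The trophocyte share was 32.7% of fibroblasts and 19.4% without the 6% of cells of the library with the most UMIs. Shares of cells with a UMI moved with depth: Pi16 was in 31.1% of trophocytes without thinning, 24.8% at 4000 UMIs and 6.97% where 2 or more UMIs were asked for, and Ackr4 in 89.3%, 81.7% and 33.7%.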
